A study of Mus musculus with 8 samples.

Results

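Heartbeat in the embryonic ventricle rests on calcium cycling, and 10 genes of this cycle were examined at the RNA level. The genes are Ryr2, Atp2a2, Pln, Sln, Slc8a1, Cacna1c, Casq2, Jph2, Trdn and Camk2d. They were chosen by symbol for the role of their proteins in the sarcoplasmic reticulum and the sarcolemma, with earlier results of these data known. Each was found on a single row of the 52778 rows in the table. All 8 libraries came from ventricular heart tissue of mouse embryos at embryonic day 11.5. In the 4 conditional knockout libraries (cKO), floxed Rps19bp1 alleles (Rps19bp1 fl/fl) had been combined with an Xmlc2-Cre transgene (Xmlc2-Cre +/−) that is described as acting in cardiomyocytes, while the other cells of the ventricle should keep the gene. The 4 other libraries are labelled control, with no alleles or Cre stated for them. The sample labels name a C57BL/6 wild-type strain for every library and their extraction text speaks of neurons, so tissue and genotype were checked in the values. No label says whether a library came from a single embryo or from pooled ventricles, and the p-values measure only the spread between these libraries.

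In a heart muscle cell, the L-type channel in the sarcolemma lets in a little calcium, and this opens ryanodine receptors in the adjoining sarcoplasmic reticulum, which release much more. The SERCA pump then returns calcium to the reticulum and the sodium-calcium exchanger carries it out of the cell. Small membrane peptides restrain the pump, calsequestrin buffers the stored calcium, junctophilin and triadin hold the release site together, and protein kinases tune the whole cycle. In the early embryonic heart the reticulum is still sparse, and entry and extrusion across the sarcolemma carry a larger part of the cycle than in the adult.

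Of the 10 genes, Casq2 alone passed the test between groups, where 6.40% of all tested genes passed. It encodes cardiac calsequestrin, the calcium buffer in the lumen of the reticulum, and its mean level was 1.66 times as high in cKO as in control. No member passed in the other direction. The neighbouring lumen gene Hrc, which encodes the histidine-rich calcium binding protein, was higher as well, and its mean level was 1.21 times that of control. Among 107 further calcium genes that were tested, 1 was higher in cKO and 8 were lower, against 2.16% and 4.23% of all tested genes, and 5 of those 8 belong to the adrenergic and protein kinase A arm. The lists of these further genes were chosen with earlier results of these data known.

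The stretches upstream of Casq2 and Hrc are shown because these are the calcium genes that were higher in cKO, with that of Pln, the member with the next highest fitted change, for comparison. Each is the 250 bases before the start of the gene on GRCm38.p6 from RefSeq, plus strand, 5′ to 3′. They lie at chr3:102086165-102086414 for Casq2, chr7:45335019-45335268 for Hrc and chr10:53337436-53337685 for Pln. Capitals mark matches on either strand to the E-box CANNTG, to GATA, to the T-box motif AGGTGT or to the consensus of the muscle factor MEF2, and no matches overlap in these stretches.
Casq2: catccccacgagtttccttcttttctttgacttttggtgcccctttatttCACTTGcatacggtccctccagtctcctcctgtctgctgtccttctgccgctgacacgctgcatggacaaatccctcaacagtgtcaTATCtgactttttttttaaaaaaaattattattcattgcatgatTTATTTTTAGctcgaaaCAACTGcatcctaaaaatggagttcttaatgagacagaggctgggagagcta
Hrc: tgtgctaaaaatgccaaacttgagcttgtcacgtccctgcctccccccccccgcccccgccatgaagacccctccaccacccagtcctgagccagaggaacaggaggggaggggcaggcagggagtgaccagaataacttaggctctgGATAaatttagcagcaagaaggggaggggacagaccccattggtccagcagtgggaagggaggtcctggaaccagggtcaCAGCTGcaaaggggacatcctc
Pln: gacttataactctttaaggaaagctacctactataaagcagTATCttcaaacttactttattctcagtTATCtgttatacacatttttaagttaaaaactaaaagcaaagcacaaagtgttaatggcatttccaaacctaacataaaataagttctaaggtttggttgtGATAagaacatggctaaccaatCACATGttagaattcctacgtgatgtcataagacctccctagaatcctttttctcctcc

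The Casq2 stretch holds 1 match to the MEF2 consensus, 69 to 60 bases before the start, beside 2 E-boxes and 1 GATA. A MEF2 match stands in 2.92% of the 32851 promoter windows of this length. Promoter sequences were matched for 7 of the 10 members, with 10 windows in all, and a MEF2 match was found in the window of 1 of these genes. The Hrc stretch holds 1 E-box and 1 GATA, and the Pln stretch 1 E-box and 3 GATA. E-boxes stand in 66.2% and GATA in 53.6% of all windows, and the T-box motif, with 0 matches in the 3 stretches, in 11.8%. These are matches of letters in a window and carry no information on whether a factor binds there.

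Levels are given in TPM, the unit of the deposited table, a transcript abundance corrected for length and expressed as a share of the library. The depth behind the values is not known from the table. Changes are differences of log2(TPM + 1), cKO minus control, fitted with limma over the 15541 rows with a mean of at least 1 TPM, and p-values were adjusted over all of these rows. A gene is called where the adjusted p is under 0.05. Over all tested rows, 6.40% were called, 2.16% as higher and 4.23% as lower in cKO, and the groups of 4 did not overlap in 15.6%. Before adjustment, limma's p was under 0.05 for 23.7% of all tested rows, 8.36% higher and 15.4% lower. All tested rows had a median log2 change of -0.02, and 55.8% were fitted below 0. Of the 10 members, 9 reached the filter, and Sln did not. Among the 9, 1 was called, 3 had a fitted change above 0 and 6 below, and the median log2 change was -0.08. The groups did not overlap for 2 of the 9. With limma's p before adjustment, 3 of the 9 were under 0.05, 1 higher and 2 lower, a share of 33.3% against 23.7% of all tested rows. For 15 contractile genes of the cardiomyocyte, such as Tnnt2, Actc1 and Myh7, 0 were called by limma, 4 were under 0.05 before adjustment (26.7%, against 23.7% of all rows) and the median log2 change was -0.05.

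The targeted gene was lower in every cKO library. Rps19bp1 stood at 14.96 ± 3.14 TPM in cKO and at 39.9 ± 3.93 TPM in control (SD, n = 4), so that cKO kept 37.5% of the control mean in RNA of the whole tissue. Marker genes of heart muscle were abundant. Of 3 ventricular markers, Myl2 and Hey2 were not past the threshold. The third, Irx4, was lower (73.8 ± 2.31 TPM in cKO, 94.5 ± 3.48 TPM in control, SD, n = 4, limma adjusted p = 0.00308). Over all tested rows, 4.23% were called as lower. The 15 contractile genes summed to 36745 to 39238 TPM in cKO and to 37495 to 41436 TPM in control, while the skeletal muscle factors Myod1 and Myf5 and the neuronal factor Neurod1 were listed at 0 in all 8 libraries. Other markers of these lists were not at 0. Skeletal muscle markers summed to 24.4 to 36.4 TPM in cKO and 17.9 to 29.9 TPM in control. Neuronal markers summed to 1.65 to 3.44 TPM in cKO and 2.15 to 3.995 TPM in control. Markers of some other cell types moved with the groups. Smooth muscle, skeletal muscle, erythroid, macrophage and neuronal marker sums overlapped between groups, with 0 called in each of these lists. Summed levels of 6 epicardial markers ran from 327 to 418 TPM in cKO and from 269 to 302 TPM in control, with 4 of 6 called as higher. Those of 6 mesenchymal markers ran from 756 to 953 TPM in cKO and from 535 to 664 TPM in control, with 4 of 6 called as higher. Over all tested rows, 2.16% were called as higher. Summed levels of 8 endocardial and endothelial markers ran from 778 to 882 TPM in cKO and from 728 to 775 TPM in control, with 0 of 8 called and 4 of 8 under 0.05 by limma before adjustment, against 23.7% of all tested rows. Mitochondrially encoded transcripts made up 14.2% ± 1.39 of TPM in cKO and 11.9% ± 0.350 in control (SD, n = 4, exact permutation p = 0.0286), which lowers all other TPM slightly. In bulk tissue, fewer cells of a type and less RNA per cell cannot be told apart.

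**Figure D1:**
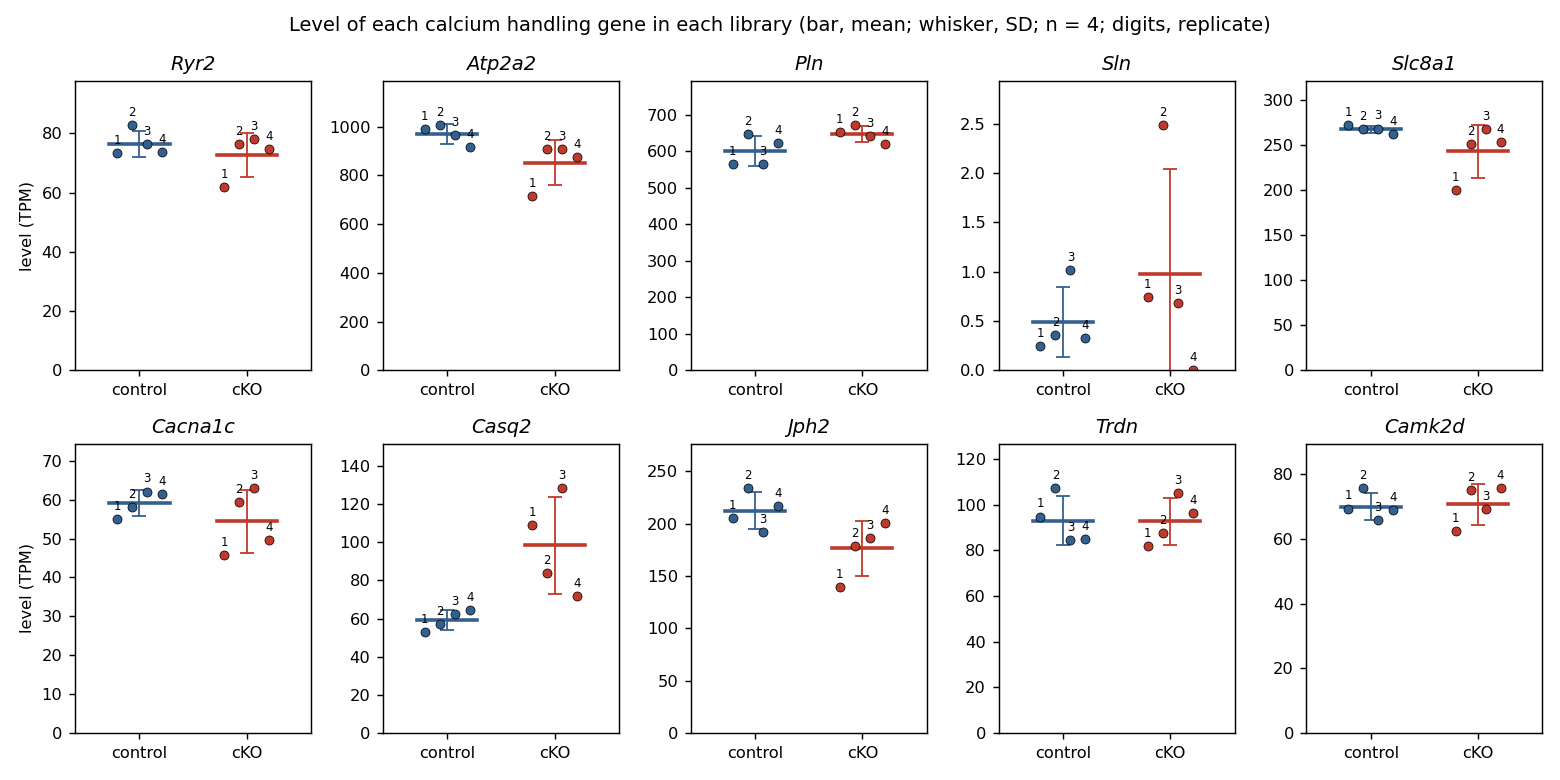
Level in TPM (vertical axes, from 0) of the 10 calcium handling genes in the 4 control and the 4 cKO libraries. Points are libraries with their replicate number, bars are means and whiskers are SDs. Casq2 in cKO lay between 72.0 and 128.6 TPM, above all control libraries, and cKO replicate 1 was the lowest library for 7 of the 10 genes.

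Ranked by control mean, the members ran from abundant to barely detected. Atp2a2 was highest at 970.3 ± 39.6 TPM, followed by Pln at 600.3 ± 41.8 TPM, Slc8a1 at 267 ± 4.19 TPM and Jph2 at 212.3 ± 17.8 TPM in control (SD, n = 4). In control the ranges of these neighbours did not overlap. Below them came Trdn at 92.96 ± 10.7 TPM, Ryr2 at 76.6 ± 4.37 TPM, Camk2d at 70.001 ± 4.16 TPM, Casq2 at 59.2 ± 5.35 TPM and Cacna1c at 59.2 ± 3.28 TPM. Ryr2 overlapped with Camk2d and Casq2 with Cacna1c, so these pairs were not ordered beyond their spread. Sln came last at 0.488 ± 0.358 TPM. In cKO the order was the same except that Casq2 moved from the eighth to the fifth place, above Trdn, Ryr2 and Camk2d by mean. The cKO range of Casq2 overlapped with those of all 3, and that of Slc8a1 with that of Jph2. The cKO ranges of Ryr2, Camk2d and Cacna1c overlapped with each other. These genes were not ordered beyond their spread. The 10 genes summed to 2308 ± 167 TPM in cKO and to 2409 ± 87.5 TPM in control (SD, n = 4), a difference within the spread of the libraries (exact permutation p = 0.4).

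The release channel and its entry trigger were described first. Ryr2 (chr13:11553099-12106945, minus strand, GRCm38) encodes the cardiac ryanodine receptor. In order of replicate number, its level was 62.0, 76.4, 78.1 and 74.6 TPM in cKO and 73.4, 82.8, 76.3 and 73.6 TPM in control, and this order is kept for every gene. The groups overlapped, with cKO replicate 1 alone below all controls, and the log2 change was -0.08 with a 95% interval from -0.24 to 0.09 (limma adjusted p = 0.589). Without cKO replicate 1 the log2 change of Ryr2 was -0.00206.

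Ryr2 made up 95.4% ± 0.661 of the summed TPM of the 3 ryanodine receptor genes in cKO and 96.5% ± 0.645 in control (SD, n = 4). Ryr3, a receptor of low abundance in heart, stood at 3.37 ± 0.395 TPM in cKO and 2.70 ± 0.450 TPM in control (SD, n = 4, limma adjusted p = 0.228). Ryr1, the skeletal muscle receptor, was at 0.131 TPM or below in every control library and at 0.143 TPM or below in every cKO library.

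Cacna1c (chr6:118587240-119197384, minus strand) encodes the pore of the cardiac L-type channel. It stood at 45.7, 59.4, 63.0 and 49.5 TPM in cKO and at 55.0, 58.2, 62.1 and 61.4 TPM in control. The cKO libraries spread to either side of the controls, and the log2 change was -0.13 with a 95% interval from -0.34 to 0.08 (limma adjusted p = 0.460). Cacna1c gave 88.4% ± 1.95 of the L-type pore transcripts in cKO and 86.97% ± 0.907 in control (SD, n = 4). The pore Cacna1d, known from pacemaker cells and the atrium, was at 6.20 ± 0.968 TPM in cKO and 8.21 ± 0.373 TPM in control (SD, n = 4). The groups of Cacna1d did not overlap, yet its log2 change of -0.36 missed the threshold (limma adjusted p = 0.0550). Among markers of the sinoatrial node, Hcn4, a pacemaker channel, was lower in cKO (15.9 ± 2.36 TPM against 27.99 ± 1.97 TPM, SD, n = 4, limma adjusted p = 0.00279), while the node factor Tbx3 stood at 7.54 ± 2.46 TPM in cKO and 7.42 ± 3.20 TPM in control (limma adjusted p = 0.917). Shox2 and Isl1 had means under 1 TPM and were not tested, and the part of node cells in the Cacna1d values was not tested. Cacna1s, the skeletal L-type pore, ran from 0.749 to 0.947 TPM in cKO and from 0.499 to 0.736 TPM in control. Its groups did not overlap, and it was not tested because its mean lay under 1 TPM. Of the T-type pores, which open at more negative voltage, Cacna1h stood at 48.02 ± 4.07 TPM in cKO and 55.8 ± 6.60 TPM in control (SD, n = 4, limma adjusted p = 0.187). Cacna1g was at 2.02 ± 0.440 TPM in cKO and 1.95 ± 0.771 TPM in control (SD, n = 4, limma adjusted p = 0.875).

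Removal of calcium from the cytosol was examined next. Atp2a2 (chr5:122453513-122502225, minus strand) encodes SERCA2, the calcium pump of the reticulum, and the row sums its splice forms. The cKO libraries held 717, 909, 908 and 874 TPM and the control libraries 991, 1006, 968 and 916 TPM. Every cKO library lay below every control library, by little for replicates 2 and 3. The log2 change of -0.19 had a 95% interval from -0.37 to -0.02 without adjustment and was not past the threshold over all rows (limma adjusted p = 0.174). Without cKO replicate 1 the log2 change of Atp2a2 was -0.11 (limma adjusted p = 0.292), and set against the contractile genes of each library it was -0.14 (limma adjusted p = 0.365). Atp2a2 gave 99.6% ± 0.0645 of SERCA transcripts in cKO and 99.7% ± 0.0894 in control (SD, n = 4). Atp2a3, a pump of non-muscle cells, was at 2.46 ± 0.228 TPM in cKO and 2.34 ± 0.653 TPM in control, and Atp2a1, the pump of fast skeletal muscle, at 0.775 ± 0.202 TPM in cKO and 0.869 ± 0.101 TPM in control (SD, n = 4).

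Slc8a1 (chr17:81373105-81738387, minus strand) encodes the sodium-calcium exchanger NCX1, the main route of calcium out of the cell. It stood at 200.1, 251, 268 and 254 TPM in cKO and at 272, 267, 268 and 262 TPM in control. The control libraries were nearly alike, and cKO replicate 1 was far below the rest. The log2 change was -0.15 with a 95% interval from -0.32 to 0.03 (limma adjusted p = 0.309), and -0.06 without that library. The paralogs Slc8a2 (3.33 ± 0.473 TPM in cKO, 3.93 ± 0.840 TPM in control) and Slc8a3 (0.459 ± 0.0556 TPM in cKO, 0.384 ± 0.141 TPM in control, SD, n = 4) are exchangers best known from brain and skeletal muscle. Slc8a1 gave 98.5% of the exchanger transcripts in cKO and 98.4% in control.

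Pln (chr10:53337686-53345999, plus strand) encodes phospholamban, a small membrane protein that slows SERCA until it is phosphorylated. The cKO libraries held 653, 672, 641 and 619 TPM and the control libraries 566, 648, 565 and 622 TPM. The groups overlapped, and the log2 change of 0.11 had a 95% interval from -0.02 to 0.24 (limma adjusted p = 0.295). Of the exonic bases of Pln in GENCODE M21, 64.7% lie under exons of the opposite strand, chiefly of Cep85l, so part of its reads would be uncertain if counting ignored strand. The Cep85l row itself had a mean of 4.86 TPM.

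Sln (chr9:53850251-53853849, plus strand) encodes sarcolipin, a related peptide of atrial and skeletal muscle. Its level was 0.743, 2.49, 0.683 and 0 TPM in cKO and 0.250, 0.359, 1.02 and 0.324 TPM in control. It was near the bottom of the scale in every library, with its highest and its lowest value both in cKO. No test was made, because the mean lay under 1 TPM. Without the filter the log2 change of Sln was 0.29 (limma adjusted p = 0.746). Of 7 atrial markers, some of which the embryonic ventricle also expresses, 0 were higher and 1, Tbx5, was lower, with a median log2 change of -0.06. Over all tested rows, 2.16% were called as higher and 4.23% as lower. Before adjustment, limma's p was under 0.05 for 2 of the 7 markers, against 23.7% of all tested rows. The summed level of these markers was 12933 to 15060 TPM in cKO and 12445 to 13066 TPM in control. It held its largest difference of means in Nppa, which was not past the threshold (5844 ± 1139 TPM in cKO, 4276 ± 377 TPM in control, SD, n = 4, limma adjusted p = 0.0768).

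Other SERCA peptides were also measured. The another-regulin peptide, listed as 1810037I17Rik and now named Arln, was at 72.9 ± 9.90 TPM in cKO and 82.6 ± 3.56 TPM in control (SD, n = 4, limma adjusted p = 0.237). Endoregulin, listed as Smim6 and now named Erln, was at 1.29 ± 0.218 TPM in cKO and 1.05 ± 0.544 TPM in control (SD, n = 4, limma adjusted p = 0.576). Strit1, which encodes the activating peptide DWORF, reached 0.911 TPM at most and was listed at 0 in 1 cKO and 2 control libraries. Mrln, the skeletal muscle peptide myoregulin, reached 0.165 TPM at most. Pln and Arln were therefore the SERCA peptides with levels above 2.49 TPM in these ventricles.

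The ratio of Pln to Atp2a2 within a library does not depend on how the library was scaled. It was 0.911, 0.739, 0.706 and 0.708 in the cKO libraries and 0.571, 0.644, 0.584 and 0.679 in the control libraries. All cKO ratios lay above all control ratios, with means of 0.766 ± 0.0981 and 0.620 ± 0.0511 (SD, n = 4). Neither gene passed its own test, and the ratio was not tested. The ratio of Slc8a1 to Atp2a2, the route out of the cell against the route into the store, ran from 0.276 to 0.295 in cKO and from 0.266 to 0.286 in control. These ranges overlapped. The ratio of Sln to Atp2a2 was at most 0.00274 in any library, and that of Sln to Pln at most 0.00370.

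**Figure D2:**
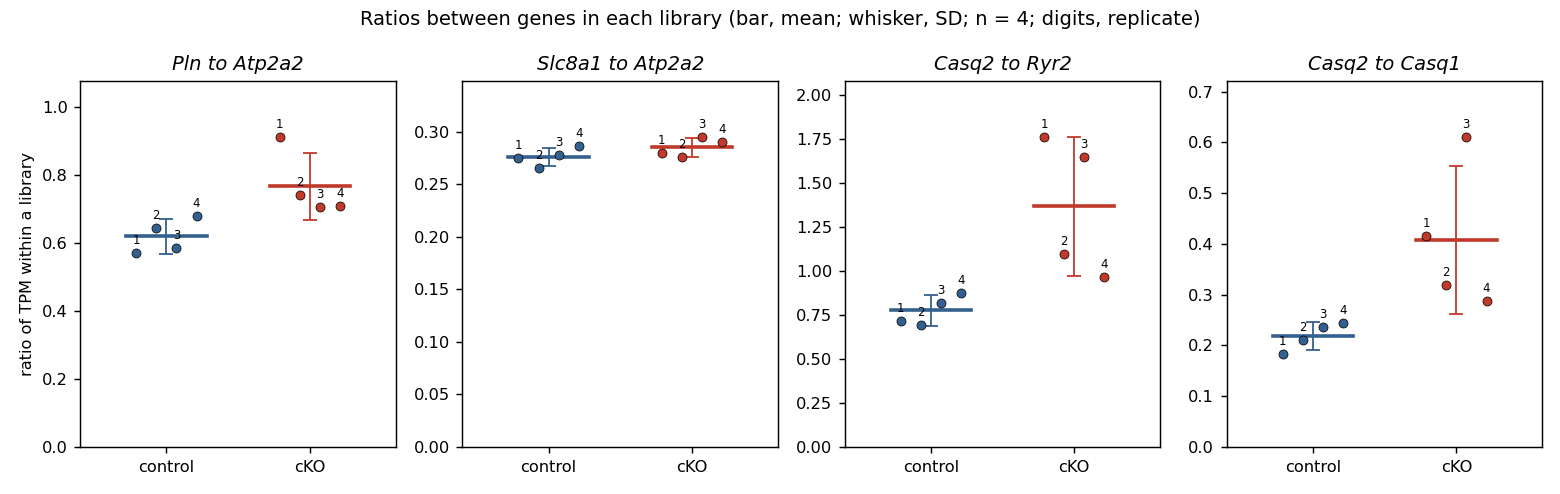
Ratio of TPM of a pair of genes within a library (vertical axes, from 0, no unit) in the 4 control and the 4 cKO libraries. Points are libraries with their replicate number, bars are means and whiskers are SDs. The Pln to Atp2a2, Casq2 to Ryr2 and Casq2 to Casq1 ratios do not overlap between groups, while the Slc8a1 to Atp2a2 ratio does. The Casq2 to Casq1 ratio could not overlap, because every cKO library is higher for Casq2 and lower for Casq1.

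Within the store, Casq2 (chr3:102086415-102146514, plus strand) was the member that changed. Its level was 109.3, 83.8, 128.6 and 72.0 TPM in cKO and 52.7, 57.2, 62.5 and 64.6 TPM in control. Every cKO library was above every control library. Replicates 1 and 3 of cKO were far above and replicate 4 only slightly so. The means were 98.4 ± 25.4 TPM in cKO and 59.2 ± 5.35 TPM in control (SD, n = 4). Casq2 thus had the widest spread of the tested members in cKO, with an SD of 25.8% of its mean against 9.03% in control. The log2 change was 0.69 (SE 0.156, 95% interval 0.34 to 1.04, limma adjusted p = 0.0322), and the exact permutation p over the 70 assignments of libraries was 0.0286, the smallest this test can give. Its exons in GENCODE M21 share no bases with those of another gene.

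The call of Casq2 lay close to the threshold. Its log2 change stayed between 0.55 and 0.83 under the 18 other processing choices, and its limma adjusted p ranged from 0.0108 to 0.123. It was called under 9 of these choices, among them all 3 other scalings and the offset by contractile genes (log2 change 0.75, limma adjusted p = 0.0303). The call was lost without cKO replicate 1 (log2 change 0.63, limma adjusted p = 0.0844), without cKO replicate 3 (0.55, limma adjusted p = 0.0588) and without any of the 4 control libraries, where the limma adjusted p ran from 0.0511 to 0.0831. It was also lost with no filter on low values (limma adjusted p = 0.123) and with no mean-variance trend (limma adjusted p = 0.0574).

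**Figure D3:**
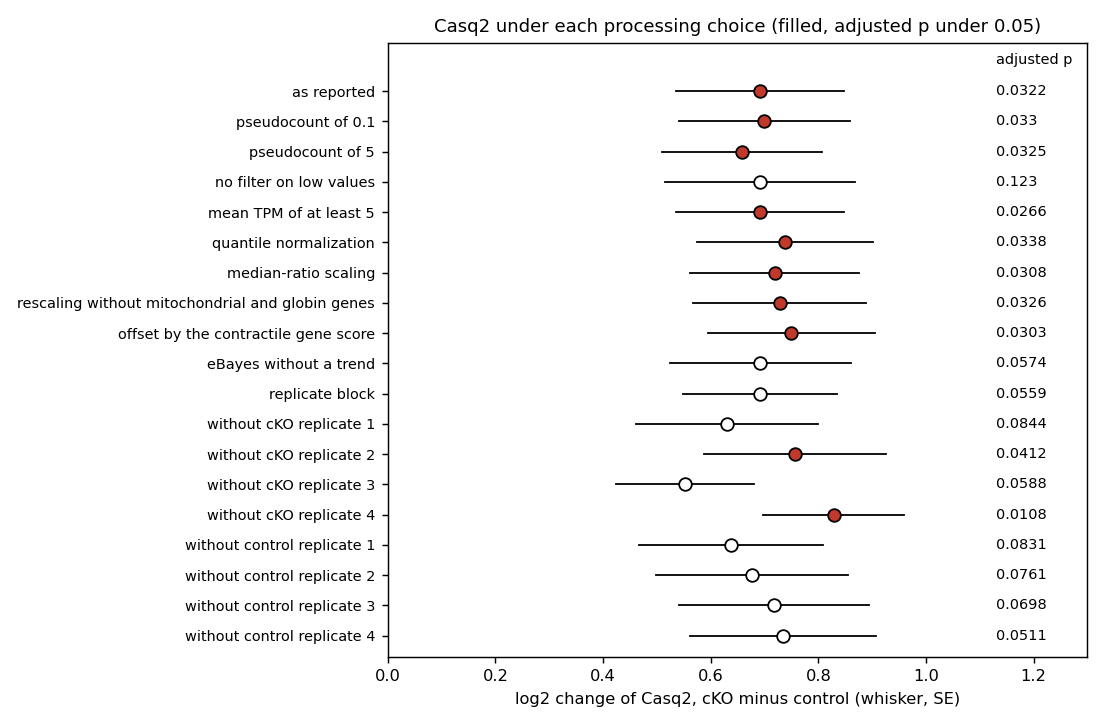
Log2 change of Casq2, cKO minus control (horizontal axis), as reported and under each of the 18 other processing choices (rows), with SE as whiskers and the limma adjusted p at the right. Filled points have an adjusted p under 0.05. All changes lie between 0.55 and 0.83, and 9 of the 18 alternatives are filled.

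The skeletal muscle paralog Casq1 was the more abundant calsequestrin transcript. Casq1 stood at 263.2, 262.7, 211 and 251 TPM in cKO and at 289, 271, 264 and 265 TPM in control. The groups did not overlap, by little for replicates 1 and 2 of cKO. The log2 change of Casq1 was -0.15 and not past the threshold (limma adjusted p = 0.253). Of its 1951 exonic bases, 156 lie under the predicted gene Gm17224 on the opposite strand, whose row had a mean of 2.77 TPM. Casq2 made up 28.4% ± 6.98 of both calsequestrins in cKO and 17.9% ± 1.90 in control (SD, n = 4). The range of this share was 22.3% to 37.9% in cKO and 15.4% to 19.6% in control. The sum of both was 323 to 373 TPM in cKO and 326 to 342 TPM in control, so the summed level overlapped between groups while the share did not. This share, like the Casq2 to Casq1 ratio, was chosen after its values were seen. Neither could overlap between groups, because every cKO library was higher for Casq2 and lower for Casq1 than every control library.

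Set against the release channel, Casq2 to Ryr2 was 1.76, 1.10, 1.65 and 0.965 in the cKO libraries and 0.718, 0.691, 0.818 and 0.877 in the control libraries. All cKO ratios were above all control ratios. By root mean square difference of centred log2(TPM + 1) over the 8 libraries, the rows nearest to Casq2 were Mgp (0.101), the predicted gene Gm11221 (0.111) and Alox5 (0.121), where Casq2 itself had a spread of 0.422 about its mean. Mgp, which encodes matrix Gla protein, an inhibitor of calcification made in mesenchyme, stood at 37.1 ± 7.10 TPM in cKO and 21.5 ± 2.59 TPM in control (SD, n = 4, log2 change 0.75, limma adjusted p = 0.0121). For Alox5 the change was 0.73 (limma adjusted p = 0.0121), and for Gm11221 it was 0.55 and not past the threshold (limma adjusted p = 0.126). All 3 rows were picked for following Casq2 over both groups, so their group differences are no separate evidence. The 6 mesenchymal markers given above summed to 953, 804, 839 and 756 TPM in cKO libraries 1 to 4, and the 15 contractile genes to 36745, 39238, 37229 and 37085 TPM. The part of these other cells in the Casq2 values was not tested.

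Trdn (chr10:33083483-33476709, plus strand) encodes triadin, which ties calsequestrin to the ryanodine receptor. It stood at 81.9, 87.6, 105.2 and 96.2 TPM in cKO and at 94.8, 107.4, 84.4 and 85.2 TPM in control. The groups were interleaved, and the log2 change was -0.00322 with a 95% interval from -0.21 to 0.21 (limma adjusted p = 0.987). Its direction turned above 0 under each of the 3 other scalings and the contractile offset. The ratio of Trdn to Casq2 ran from 0.749 to 1.34 in cKO and from 1.32 to 1.88 in control, with cKO replicate 4 inside the control range.

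Jph2 (chr2:163336242-163398049, minus strand) encodes junctophilin 2, which spans the cleft between sarcolemma and reticulum. The cKO libraries held 139.7, 179, 187 and 200.3 TPM and the control libraries 205, 234, 192 and 217 TPM. The groups overlapped through cKO replicate 4 and control replicate 3 only. Jph2 had the lowest fitted change of the members, a log2 change of -0.28 with a 95% interval from -0.51 to -0.04 without adjustment, and it was not past the threshold (limma adjusted p = 0.147). Without cKO replicate 1 this log2 change was -0.17. Jph2 to Ryr2 ran from 2.25 to 2.69 in cKO and from 2.52 to 2.95 in control, and Cacna1c to Ryr2 from 0.664 to 0.807 in cKO and from 0.702 to 0.834 in control. Jph1, the junctophilin of skeletal muscle, was at 4.56 ± 0.930 TPM in cKO and 6.13 ± 0.991 TPM in control (SD, n = 4, log2 change -0.37, limma adjusted p = 0.142). Jph2 gave 97.0% of the transcripts of the 4 junctophilins in each group.

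Camk2d (chr3:126595487-126846326, plus strand) encodes the delta subunit of the calmodulin-dependent kinase CaMKII, which phosphorylates the ryanodine receptor and phospholamban. It stood at 62.3, 75.3, 69.3 and 75.8 TPM in cKO and at 69.4, 75.8, 65.8 and 69.0 TPM in control. The groups overlapped throughout, and the log2 change was 0.01 with a 95% interval from -0.14 to 0.17 (limma adjusted p = 0.945). Camk2d gave 29.03% ± 1.59 of CaMKII transcripts in cKO and 28.2% ± 0.845 in control (SD, n = 4). The Camk2a row was the most abundant of the family at 114 ± 9.38 TPM in cKO and 117 ± 3.08 TPM in control, and Camk2g followed at 56.7 ± 0.759 and 59.3 ± 2.23 TPM (SD, n = 4). The Camk2a gene also gives rise to alpha-KAP, a kinase anchoring protein of muscle without the kinase domain, and the row does not separate it from the neuronal kinase. It overlaps the predicted gene Gm46632 on the same strand, with a mean of 17.8 TPM. Camk2b was at 1.70 ± 0.247 TPM in cKO and 2.30 ± 0.230 TPM in control (SD, n = 4, limma adjusted p = 0.133).

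**Figure D4:**
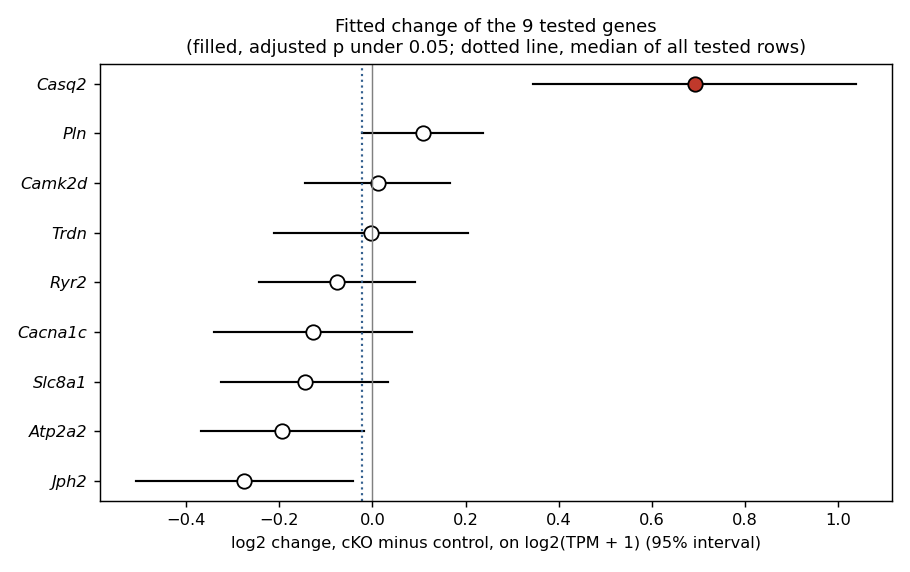
Fitted log2 change, cKO minus control, on log2(TPM + 1) (horizontal axis) with its 95% interval without adjustment, for the 9 tested members (rows). The filled point has an adjusted p under 0.05, and the dotted line is the median of all 15541 tested rows. Casq2 stands at 0.69, while the other 8 lie between -0.28 and 0.11.

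A feature of the libraries touches most members. For 7 of the 10 genes the lowest of the 8 values was that of cKO replicate 1, and this library also had the lowest mean log2(TPM + 1) of the contractile genes, at 9.74 against 9.79 to 9.86 in the other cKO libraries and 9.79 to 9.93 in control. Its share of mitochondrially encoded transcripts was 13.2%, as in cKO replicate 2 and below the other cKO libraries. Without it the median log2 change of the 9 tested members was -0.00206 in place of -0.08. Casq2, Pln and Sln were not lowest there, and Casq2 in this library was exceeded only by cKO replicate 3.

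The rest of the pathway was read from 8 lists of 125 further genes, of which 107 were tested and 18 lay under the filter. Of the 107, 1 was called as higher and 8 as lower, 0.935% and 7.48%, where 2.16% and 4.23% of all tested rows were. The median log2 change of the 107 was -0.06 against -0.02 for all tested rows, and groups did not overlap for 24.3% of them against 15.6%. The count of 9 calls was 2 with the offset by contractile genes and also 2 without cKO replicate 1 and without each of control replicates 1, 2 and 3. It was 3 with no filter and 5 without cKO replicate 3 and without control replicate 4.

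**Figure D5:**
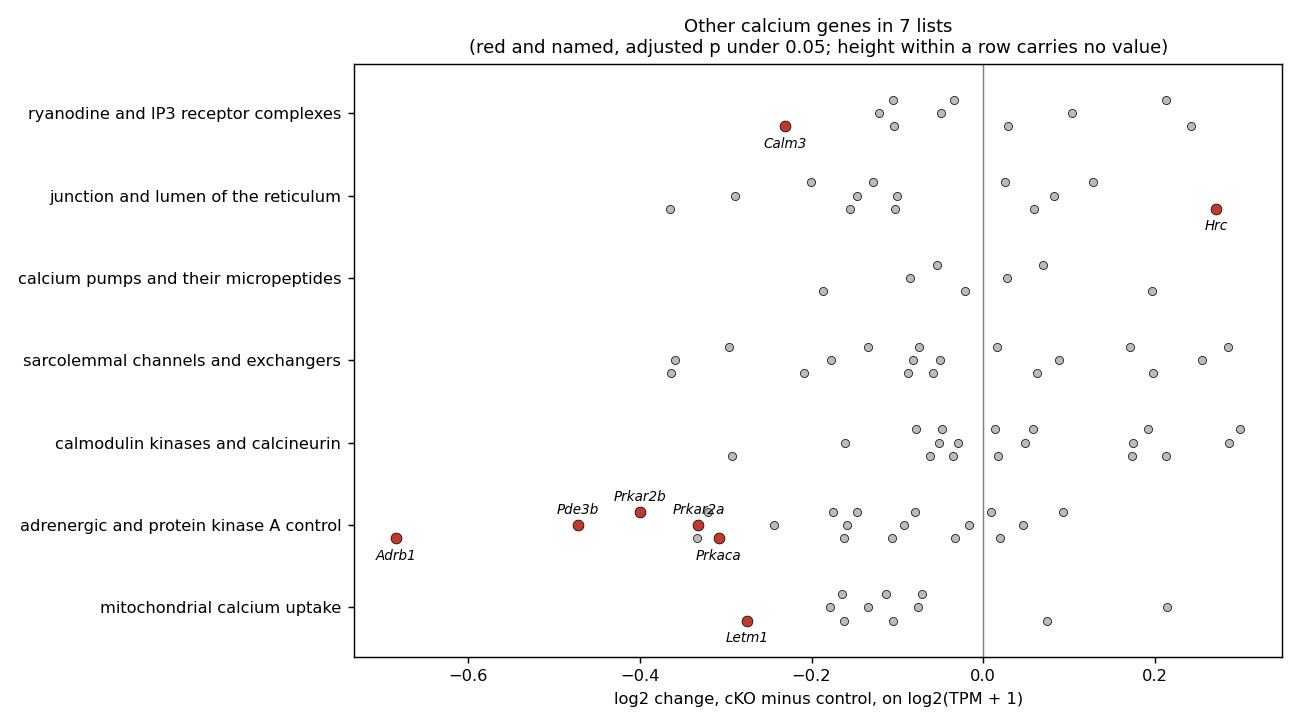
Fitted log2 change, cKO minus control, on log2(TPM + 1) (horizontal axis) of the further calcium genes that were tested, for 7 of the 8 lists (rows), without store-operated entry. Each point is a gene, and red, named points have an adjusted p under 0.05. The adrenergic and protein kinase A row holds 5 lower calls, and Hrc is the 1 higher call.

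Adrenaline raises the calcium transient through the beta receptor, adenylyl cyclase and protein kinase A (PKA), which phosphorylates phospholamban, the ryanodine receptor and the L-type channel complex. Of 21 tested genes of this arm, 5 were lower, 0 were higher and 16 were not past the threshold by limma. The shares lower and higher were 23.8% and 0%, against 4.23% and 2.16% of all tested rows. With limma's p before adjustment, 11 were lower and 0 higher (52.4% and 0% against 15.4% and 8.36% of all tested rows). The median log2 change was -0.16 and 17 of 21 (80.95%) were fitted below 0, against 55.8% of all tested rows. The lists were chosen with earlier results of these data known, so these shares cannot be read as independent evidence. Prkar2a, a regulatory subunit of PKA, stood at 40.6, 45.2, 42.3 and 44.6 TPM in cKO and at 55.4, 54.5, 55.1 and 53.3 TPM in control. The libraries within a group were close and the groups far apart, and the log2 change was -0.33 with an SE of 0.0476 (limma adjusted p = 0.00585). Prkar2a kept its call under all 18 other processing choices, with a log2 change between -0.35 and -0.27.

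The other regulatory subunit of this type, Prkar2b, went from 13.6 ± 0.887 TPM in control to 10.1 ± 0.955 TPM in cKO (SD, n = 4), and its log2 change was -0.40 (limma adjusted p = 0.0194). Prkaca, the main catalytic subunit, was at 183 ± 8.48 TPM in control and 148 ± 12.0 TPM in cKO (SD, n = 4), with a log2 change of -0.31 (limma adjusted p = 0.0229). Every cKO library lay below every control library for Prkar2a, Prkar2b and Prkaca. The groups overlapped for Prkar1a and Prkacb, the other PKA subunits listed. Prkar1a, the most abundant subunit listed, had means of 333 TPM in cKO and 337 TPM in control (limma adjusted p = 0.861). Means of Prkacb were 44.8 TPM in cKO and 45.8 TPM in control (limma adjusted p = 0.696). The call of Prkar2b was lost without cKO replicate 1 or control replicates 1 or 2 (limma adjusted p = 0.0510, 0.0566 and 0.0515) and under 3 other choices. That of Prkaca was lost without cKO replicates 1 or 3 or control replicates 2 or 3 (limma adjusted p = 0.0514, 0.0570, 0.0618 and 0.0694) and under 3 other choices, with the contractile offset among them for both.

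Adrb1, the main beta receptor of the heart, was at 2.34, 3.42, 5.21 and 3.66 TPM in cKO and at 6.86, 5.79, 5.62 and 7.05 TPM in control. Its groups did not overlap, though cKO replicate 3 came close to the controls. The log2 change was -0.68 (SE 0.165, limma adjusted p = 0.0392). Pde3b, a phosphodiesterase that degrades cyclic AMP, was at 15.6 ± 0.938 TPM in control and 11.1 ± 2.16 TPM in cKO (SD, n = 4), with a log2 change of -0.47 (limma adjusted p = 0.0453). The call of Adrb1 was lost under 13 of 17 other choices, among them the removal of any library but cKO replicate 3 (limma adjusted p from 0.0601 to 0.0973). That of Pde3b was lost under 14 of 18, among them the removal of any library but cKO replicate 4 (limma adjusted p from 0.0651 to 0.110).

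Among 10 tested genes of the ryanodine and IP3 receptor complexes, 1 was lower, 0 were higher and 9 were not past the threshold. The shares lower and higher were 10% and 0%, against 4.23% and 2.16% of all tested rows, and the first rests on 1 gene. Calm3, which encodes the calcium sensor calmodulin, was at 287 ± 8.67 TPM in control and 245 ± 7.70 TPM in cKO (SD, n = 4), with a log2 change of -0.23 (limma adjusted p = 0.0178). Its call was lost without control replicates 1 or 3 (limma adjusted p = 0.0521 and 0.0511) and with the contractile offset (0.186). Among 13 tested genes of the junction and lumen, 1 was higher, 0 were lower and 12 were not past. Here the shares higher and lower were 7.69% and 0%, against 2.16% and 4.23%, and the first again rests on 1 gene. Hrc binds calcium in the lumen beside calsequestrin, and stood at 186, 197, 213 and 177 TPM in cKO and at 149, 174, 164 and 151 TPM in control. All cKO libraries of Hrc lay above all control libraries, with cKO replicate 4 close to control replicate 2. The log2 change of Hrc was 0.27 (SE 0.0700, limma adjusted p = 0.0485), and over the 18 other choices it ranged from 0.22 to 0.35. The call of Hrc was lost under 9 of them, among them the removal of any library but cKO replicate 4 (limma adjusted p from 0.0514 to 0.121).

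The remaining lists held few calls. Of 7 tested pumps and micropeptides, 18 sarcolemmal channels and exchangers and 18 calmodulin kinase and calcineurin genes, limma called 0, with medians of -0.02, -0.07 and 0.02, and 0, 6 and 5 were under 0.05 before adjustment (0%, 33.3% and 27.8%, against 23.7% of all tested rows). The smallest p among the channels belonged to Cacna1d, which passed without cKO replicate 4 (limma adjusted p = 0.0335) and with a filter of 5 TPM (0.0493), and to Rem1, a small GTPase that inhibits the L-type channel (6.06 ± 0.408 TPM in cKO, 4.91 ± 0.208 TPM in control, SD, n = 4, limma adjusted p = 0.0675). Among the kinases and calcium sensors it belonged to S100a1, a calcium sensor of muscle (93.7 ± 7.55 TPM in cKO, 81.8 ± 3.45 TPM in control, SD, n = 4, limma adjusted p = 0.0895), and to Camk2b. The rows of S100a1 and S100a13 overlap on opposite strands, while the exons of S100a1 in GENCODE M21 share no bases with those of another gene. The value of S100a1 would be less certain if counting ignored strand. Of 11 mitochondrial uptake genes, 9 were fitted below 0 (81.8%, against 55.8% of all tested rows) and 1 was lower (9.09%, against 4.23%). This was Letm1, an ion exchange protein of the inner membrane, at 30.1 ± 1.16 TPM in control and 24.7 ± 1.19 TPM in cKO (SD, n = 4), with a log2 change of -0.28 (limma adjusted p = 0.0195). The call of Letm1 was lost without cKO replicate 1 or control replicates 1, 2 or 3 (limma adjusted p from 0.0515 to 0.0602) and with the contractile offset (0.0947).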

How the data were processed

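RNA sequencing covered 4 cKO and 4 control ventricle libraries, with groups and replicate numbers taken from the sample titles. The authors deposited TPM values, and each column summed to 999999 or 1000000 after rounding. The submitters' processing notes name FastQC, Trim Galore 0.6.7, HISAT2 2.2.1, StringTie 2.2.1, featureCounts and DESeq2 with no role or order, and the build GRCm38. The annotation and the use of strand are not given in the sources used here, and the labels contradict each other on depletion of ribosomal RNA against poly(A) selection. All libraries carry 1 batch label. Of 49630 rows matched by symbol and chromosome to the RefSeq table of GRCm38.p6, 49629 agreed in both coordinates, the 10 members included.

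Values were analysed as log2(TPM + 1) with limma 3.58.1 in R 4.3.3 (2-sided, group as the only term, trended eBayes), for rows with a mean of at least 1 TPM, with Benjamini-Hochberg adjustment over all tested rows. Changes on this scale are understated for low values. Members and lists were chosen with earlier results of these data known. Named genes were the members, their paralogs, the SERCA peptides, up to 6 called genes in each list or else the 2 with the smallest p, and the 3 rows nearest to Casq2. Prkar1a and Prkacb were named besides, as the remaining PKA subunits listed. The store-operated entry list is counted in the totals and its genes are not reported here. The listed Arln and Erln were matched under their older symbols. The exact permutation test (2-sided) ran over 70 assignments. In simulated data for this comparison on 15541 genes, the fit found 94.9% of genes with a true log2 change of 1 and 60.4% with 0.5, and 4.32% of its calls were false. The simulation changed 200 genes and gave each gene independent normal noise, with no shift shared within a library. Its rates therefore need not hold for the real libraries. Alternatives were pseudocounts of 0.1 and 5, no filter or a mean of at least 5 TPM, median-ratio scaling, quantile normalization, TPM recomputed without globin and mitochondrial genes, an offset by the mean of the 15 contractile genes, no trend, a replicate block, and leaving out each library. TPM keeps no depth, so no counting error or detection floor is given. Figures were drawn with matplotlib 3.10.9.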

Additional observations from a re-analysis of the deposited data

Results flagged for a closer look

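Among 41 named genes, each checked in both groups, 5 groups of 4 libraries held a library far from the other 3, where chance gives about 1 in 20 groups. In control, Sln was 1.02 TPM in replicate 3 against 0.250 to 0.359 TPM in the others. Letm1 was 28.4 TPM in control replicate 4 against 30.6 to 30.8 TPM. Camk2g was 62.6 TPM in control replicate 2 against 57.9 to 58.6 TPM. Mrln was 0.0803 TPM in cKO replicate 2 and listed at 0 in the other cKO libraries, and was 0.165 TPM in control replicate 3 against 0 to 0.0232 TPM in the others. With the other cKO libraries at 0, any value above 0 is flagged, so the chance rate does not hold for Mrln in cKO.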

How the results depend on the processing

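The count of 994 calls over all rows was 347 with no filter on low values, 390 with the contractile offset, 609 with no trend and 420 with the replicate block, and 388 to 936 when single libraries were left out (400 and 420 without cKO replicates 1 and 3, 388, 445, 412 and 565 without control replicates 1 to 4). Of the calls, 33.8% were higher in cKO as deposited, 50.2% after quantile normalization, 47.8% after median-ratio scaling, 49.9% after rescaling without mitochondrial and globin genes and 72.1% with the contractile offset, and these 4 scalings moved the median of all rows by 0.02, 0.03, 0.03 and 0.06. The count of 1 called member was 0 with no filter, with no trend and with the replicate block, and 0 to 1 without single libraries. The count of 9 further calcium genes was 3 with no filter, 2 with the contractile offset, 4 with the replicate block and 2 to 11 without single libraries.

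The called calcium genes and Rps19bp1 kept their direction under every alternative run, and Prkar2a and Rps19bp1 also kept their call. Changes near 0 turned sign. Trdn was 0.0499 after quantile normalization, 0.0239 after median-ratio scaling, 0.0319 after rescaling, 0.0550 with the contractile offset and -0.0654 to 0.0678 without single libraries. Camk2a was 0.0145 after quantile normalization, 0.0230 with the offset and -0.0810 to 0.0132 without single libraries, of which the removal of cKO replicate 1 turned it. Removal of a single library also turned Camk2d (-0.0235 to 0.0693), Atp2a3 (-0.0251 to 0.172) and Cacna1g (-0.0522 to 0.195). The cause was not tested. In the replicate block, same-numbered libraries shared only a number: the correlations of their deviations from the group means were -0.01, 0.07, 0.06 and -0.09 for numbers 1 to 4. The block ended the calls of Casq2 (limma adjusted p = 0.0559), Calm3 (0.0595), Prkar2b (0.0538), Letm1 (0.0656), Adrb1 (0.0799) and Pde3b (0.0910) among the genes named, with the same fitted changes. Depth is unknown, so levels under 1 TPM, such as Sln, carry no stated precision beyond the spread between libraries.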
